A study of Mus musculus with 10 samples.

Results

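The genes described here encode 10 liver enzymes that break down serine, glycine, proline and alanine or move their amino groups: Sds, Sdsl, Gldc, Amt, Agxt, Agxt2, Gpt, Got1, Prodh and Prodh2. They were chosen by gene symbol, with earlier results of these data known, and all 10 were found among the 19414 genes of the deposited table. Liver RNA was sequenced from 10 female HET3 mice, a genetically heterogeneous stock, after 5 months of feeding. Of these mice, 5 received a standard diet and 5 the Longevity diet, which the title of the series calls methionine-supplemented. Their stated age is 25 months, and the labels can be read as counting it before or after feeding; no other treatment is named. Mice are named by diet and number, SD_403 being a standard diet mouse and LD_405 a Longevity diet mouse. Nothing in the labels says whether mice shared a cage, litter or day of collection.

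The liver is the main site where these amino acids enter gluconeogenesis and where their nitrogen is passed on to urea. Serine dehydratase turns serine into pyruvate, the glycine cleavage system splits glycine in the mitochondria into carbon dioxide, ammonia and a folate-bound one-carbon unit, and aminotransferases exchange amino groups between alanine, aspartate, glyoxylate and glutamate. Proline is oxidised in the mitochondria to pyrroline-5-carboxylate and on to glutamate. Several of these enzymes are known to respond to dietary protein, fasting and glucagon, and Sds is known as an enzyme of periportal hepatocytes, those around the portal vein where blood enters the lobule.

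Upstream sequence was available from RefSeq (GRCm38.p6) for 7 of the 10 genes. The 250 bases before the annotated start are shown for Got1, the gene that fell, for Agxt, the next in order of p, for Gldc and Amt, which encode parts of 1 enzyme complex, and for Prodh2, the gene that stood higher on the Longevity diet. Sequences run 5′ to 3′ on the strand of the gene, and capitals mark every match to CCAAT (read as ATTGG on the other strand), to TGATGNAA, a composite site of the C/EBP and ATF families, to GGGCGG, an Sp1 site, in Gldc and Amt, and to GTTAAT followed by any base and ATTAA, an HNF1 site, in Prodh2. These motifs, with TATAAA and the CREB core TGACG, were picked after the sequences had been seen.
Got1 (GRCm38.p6 chr19:43524606-43524855, minus strand): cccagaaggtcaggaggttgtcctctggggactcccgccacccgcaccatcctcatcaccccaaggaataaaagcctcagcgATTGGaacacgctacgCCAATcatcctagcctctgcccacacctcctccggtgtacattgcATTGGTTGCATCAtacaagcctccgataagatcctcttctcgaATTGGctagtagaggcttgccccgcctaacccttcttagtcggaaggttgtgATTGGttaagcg
Agxt (GRCm38.p6 chr1:93134990-93135239, plus strand): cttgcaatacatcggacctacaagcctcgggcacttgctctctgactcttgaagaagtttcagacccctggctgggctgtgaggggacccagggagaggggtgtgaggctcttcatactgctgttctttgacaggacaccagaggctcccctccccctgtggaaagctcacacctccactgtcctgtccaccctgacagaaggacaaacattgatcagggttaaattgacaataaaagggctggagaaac
Gldc (GRCm38.p6 chr19:30175442-30175691, minus strand): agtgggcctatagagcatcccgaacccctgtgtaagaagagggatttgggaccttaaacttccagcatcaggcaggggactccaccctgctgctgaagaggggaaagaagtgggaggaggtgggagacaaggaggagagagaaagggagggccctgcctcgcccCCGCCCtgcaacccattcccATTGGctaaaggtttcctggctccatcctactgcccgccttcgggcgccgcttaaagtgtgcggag
Amt (GRCm38.p6 chr9:108296655-108296904, plus strand): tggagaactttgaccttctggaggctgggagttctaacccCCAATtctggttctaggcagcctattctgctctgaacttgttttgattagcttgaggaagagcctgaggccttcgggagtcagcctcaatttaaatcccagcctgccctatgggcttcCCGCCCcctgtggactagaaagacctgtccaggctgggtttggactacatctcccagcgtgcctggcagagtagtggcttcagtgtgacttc
Prodh2 (GRCm38.p6 chr7:30493408-30493657, plus strand): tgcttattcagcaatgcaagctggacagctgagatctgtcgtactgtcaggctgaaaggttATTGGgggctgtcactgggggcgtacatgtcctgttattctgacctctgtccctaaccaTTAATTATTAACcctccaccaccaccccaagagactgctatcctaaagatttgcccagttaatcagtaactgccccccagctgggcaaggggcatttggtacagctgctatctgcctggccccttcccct

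The Got1 window held 5 matches to CCAAT, beginning at positions -168, -152, -107, -64 and -12 from the start. At least 1 match was present in 33.8% of 32851 windows of the same length over all RefSeq starts, and at least 5 in 0.213%. The Got1 window also held 1 match to TGATGNAA, from -102 to -95, directly beside the third CCAAT, as did 3.45% of all windows. Gldc and Amt each had 1 CCAAT and 1 GGGCGG, motifs present in 33.8% and 32.7% of windows. Prodh2 had the HNF1 motif from -130 to -119, found in 20 of the 32851 windows, and 1 CCAAT. Agxt had none of the 6 motifs, and TGACG (17.8% of windows) occurred in none of the members' windows. Among members not printed, TATAAA (12.4% of windows) was found for Agxt2 only, and Prodh had none of the 6. These matches describe letters and are not measured binding sites.

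The estimated depth was 24.7 to 45.7 M reads per library and was lower on the Longevity diet (29.9 M, SD 6.47, against 42.5 M, SD 4.35, n = 5 each, two-sided exact permutation p = 0.0159). Values are CPM, reads scaled to the same total in every library, and ± is the standard deviation of 5 mice. Differences are log2 changes of CPM + 0.1, Longevity diet over standard diet, tested with limma and adjusted by Benjamini-Hochberg over 13157 genes. A gene is said to have risen or fallen only if its adjusted p was under 0.05. Measured hepatocyte markers (8 of 8 listed) summed to 101348 to 145963 CPM on the standard diet and 144655 to 198292 CPM on the Longevity diet, Alb being the most abundant. Alb and Apoa1 stood higher on the Longevity diet without passing (log2 differences 0.68 and 0.61, adjusted p = 0.0831 and 0.274). The rest of the 8 had log2 differences below 0, from -0.98 to -0.0073. Cps1, the first enzyme of the urea cycle, was the 1 of these 8 that fell (-0.98, adjusted p = 0.0376). Sinusoidal endothelial markers (8 of 8) summed to 235 to 327 and 98.8 to 206 CPM, and stellate and fibroblast markers (8 of 8) to 475 to 717 and 300 to 565 CPM, and the endothelial sums did not overlap between the diets. Pdgfrb, a stellate cell and pericyte receptor, fell (-1.36, adjusted p = 0.0290). Neutrophil markers (6 of 6) summed to 5.13 to 80.3 and 1.86 to 6.19 CPM, SD_403 and SD_646 being highest at 68.1 and 80.3 CPM. Of the 3 abundant enough to be tested, S100a8 fell (-3.79, adjusted p = 0.0456). S100a9 (-2.64, adjusted p = 0.131) and Csf3r (-0.92, adjusted p = 0.323) did not pass. Of 6 kidney tubule markers 1 was measured, Lrp2, at 0.679 CPM in SD_403, 0.0404 CPM in LD_406 and 0 in the other mice. In bulk liver, fewer cells of a type and less RNA per cell cannot be told apart, and the part of cell makeup in the results was not tested.

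Got1 was the only one of the 10 genes to pass the test, and every Longevity diet mouse lay below every standard diet mouse. Of the 10 members 1 fell and 0 rose, where 1.23% of all tested genes fell and 0.661% rose. Of the members 9 had a log2 difference below 0, as had 60.4% of all genes, and their median was -0.62 against -0.11 over all genes. An unadjusted p under 0.05 was reached by 4 members, Got1, Agxt, Gldc and Agxt2, against 17.5% of all genes. Because the members were chosen with earlier results of these data known, these comparisons with all genes are not independent evidence. Over all genes 162 fell and 87 rose. Scaling by median-of-ratios gave 138 and 151, quantile normalization 148 and 151, and scaling without the 10 most abundant genes 132 and 130. Quantile normalization moved the median of all genes from -0.11 to 0.0034, and median-of-ratios scaling moved it to -0.0086. Relative to the median of all genes, the log2 change of Got1 was -0.99, that of Agxt -0.86 and that of Prodh2 0.32.

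**Figure D1:**
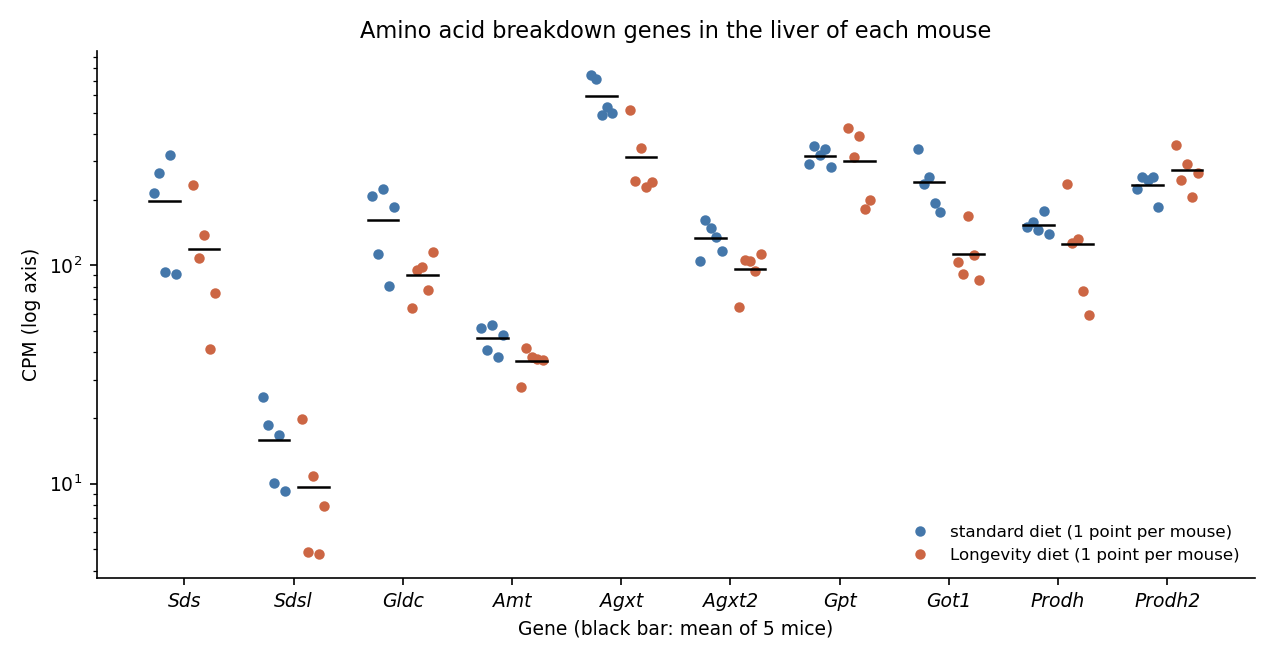
CPM of the 10 amino acid breakdown genes (log axis) in each of 10 mice, 5 per diet, with the mean of each diet as a black bar. Got1 is the gene whose 5 Longevity diet mice (86.1 to 169 CPM) all lie below its 5 standard diet mice (176 to 339 CPM).

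Among the aminotransferases, Got1 encodes the cytosolic aspartate aminotransferase, which links aspartate and glutamate and forms part of the malate-aspartate shuttle. It lies on mm39 chromosome 19 from 43488191 to 43513044 on the minus strand (ENSMUSG00000025190.14). In the order SD_403, SD_501, SD_502, SD_646 and SD_500, Got1 stood at 339, 237, 254, 192 and 176 CPM. In the order LD_405, LD_513, LD_406, LD_515 and LD_442 it stood at 104, 91.2, 169, 111 and 86.1 CPM, so the diets did not overlap, LD_406 coming closest to the standard diet. Values lower on the Longevity diet without overlap were seen for 1 of 10 members and for 3.49% of all genes, and values higher without overlap for 0 members and 2.01% of all genes. The mean went from 240 ± 64.3 to 112 ± 33.2 CPM, a log2 change of -1.10 (SE 0.23, 95% CI -1.59 to -0.61, limma adjusted p = 0.0290), or 2.14-fold lower. The two-sided exact permutation p was 0.00794, the smallest that 5 mice against 5 allow. Leaving out SD_403, SD_501, LD_513, LD_515 or LD_442 ended the call, with adjusted p of 0.0806, 0.0634, 0.0645, 0.0716 and 0.0525 and log2 changes of -0.96, -1.09, -1.03, -1.10 and -1.01.

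Agxt encodes alanine-glyoxylate aminotransferase, which in liver peroxisomes converts glyoxylate to glycine and so limits oxalate formation. Standard diet mice, in the order given for Got1, had 747, 710, 487, 534 and 496 CPM, and Longevity diet mice 514.6, 243, 346, 229 and 242 CPM. Only LD_405 reached the range of the standard diet, lying above SD_502 and SD_500. The means were 595 ± 124 and 315 ± 121 CPM, a log2 difference of -0.97 (SE 0.24, 95% CI -1.48 to -0.45, adjusted p = 0.0601, exact permutation p = 0.0238), which did not pass over all genes. Without LD_405 Agxt passed, at -1.16 (adjusted p = 0.00955). With any other single mouse left out it did not pass (adjusted p of 0.0596 to 0.154).

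Agxt2 encodes a mitochondrial aminotransferase that uses alanine and glyoxylate and also acts on beta-aminoisobutyrate and dimethylarginine. Its standard diet values were 105, 161, 148, 135 and 116 CPM and its Longevity diet values 64.8, 106, 104, 94.7 and 113 CPM. The diets overlapped, with SD_403 below LD_513 and LD_442, and LD_405 was lowest. The log2 difference was -0.47 (SE 0.19, 95% CI -0.89 to -0.05, adjusted p = 0.231, exact permutation p = 0.0238).

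Gpt encodes the cytosolic alanine aminotransferase, the enzyme measured in serum as ALT, which turns alanine into pyruvate. It stood at 317 ± 31.0 CPM on the standard diet and 302 ± 110 CPM on the Longevity diet. The Longevity diet mice spread on both sides of the standard diet range of 281 to 353 CPM, LD_405 and LD_406 at 426 and 391 CPM and LD_515 and LD_442 at 182 and 198 CPM. The log2 difference was -0.15 (95% CI -0.66 to 0.37, adjusted p = 0.779), and it was 0.014 without LD_515.

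Serine breakdown is represented by Sds, serine dehydratase, and Sdsl, its close relative. The genes lie head to head on mm39 chromosome 5, Sdsl from 120596251 to 120610875 on the minus strand and Sds from 120614591 to 120621997 on the plus strand, with 3715 bases between them. Sds stood at 213, 266, 93.1, 322 and 91.6 CPM on the standard diet and at 233, 108, 137, 41.5 and 74.5 CPM on the Longevity diet. Values within each diet were widely spread and overlapped, SD_403, SD_502 and SD_500 lying within the range of the Longevity diet mice. The log2 difference of Sds was -0.77 (SE 0.46, 95% CI -1.76 to 0.22, adjusted p = 0.405, exact permutation p = 0.238). Sdsl was less abundant, at 15.9 ± 6.496 and 9.62 ± 6.16 CPM, with a log2 difference of -0.83 (95% CI -1.68 to 0.02, adjusted p = 0.296). Its Longevity diet mice ran from 4.77 CPM in LD_515 to 19.7 CPM in LD_405. The Sds span overlaps the opposite-strand gene Plbd2 over 651 bases, and without stated strand use their reads there cannot be told apart.

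Glycine cleavage is represented by Gldc, the decarboxylase or P protein, and Amt, the aminomethyltransferase or T protein, of the same mitochondrial complex. Gldc stood at 208, 113, 223, 80.4 and 184 CPM on the standard diet and at 63.9, 95.3, 98.1, 77.2 and 115 CPM on the Longevity diet. SD_403, SD_502 and SD_500 lay above every Longevity diet mouse, while SD_501 and SD_646 lay among them. The log2 difference was -0.78 (SE 0.28, 95% CI -1.38 to -0.17, adjusted p = 0.174, exact permutation p = 0.0635). Amt stood at 46.5 ± 6.69 and 36.3 ± 5.17 CPM, with a log2 difference of -0.36 (95% CI -0.73 to 0.02, adjusted p = 0.314, exact permutation p = 0.0317). Only LD_513 (41.7 CPM) lay above SD_501 and SD_646 (40.8 and 38.2 CPM).

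For the other subunits of the complex, Gcsh, which encodes the lipoate-bearing H protein, stood at 120 ± 14.2 and 86.6 ± 14.1 CPM without overlap between the diets (log2 difference -0.47, adjusted p = 0.164). Dld, the dehydrogenase shared with the pyruvate and other 2-oxoacid dehydrogenase complexes, stood at 86.2 ± 7.76 and 93.0 ± 13.9 CPM (0.10, adjusted p = 0.779).

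Proline oxidation starts with Prodh, proline dehydrogenase, while Prodh2 encodes the dehydrogenase that acts on hydroxyproline. Prodh was even across the standard diet, at 149, 157, 146, 177 and 140 CPM, and uneven on the Longevity diet, at 235, 126, 132, 76.0 and 59.4 CPM. LD_405 exceeded all standard diet mice and the other Longevity diet mice lay below all of them, and the log2 difference was -0.45 (SE 0.30, 95% CI -1.10 to 0.20, adjusted p = 0.463). Prodh lies over the opposite-strand gene Dgcr6 for 11276 bases, so part of its reads may belong to either. Prodh2 was the member that stood higher on the Longevity diet, at 233 ± 29.6 and 272 ± 55.6 CPM (log2 difference 0.21, 95% CI -0.17 to 0.60, adjusted p = 0.568). LD_405, LD_406 and LD_442 (354, 290 and 265 CPM) lay above the standard diet maximum of 255 CPM.

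**Figure D2:**
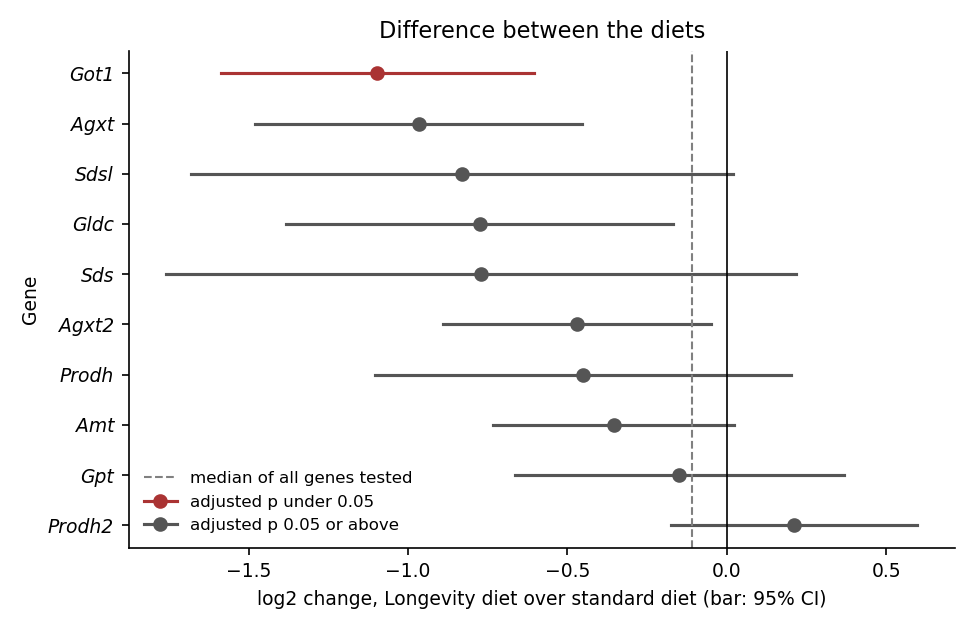
Log2 change of each gene, Longevity diet over standard diet, with its 95% confidence interval from limma over 10 mice. Got1 is drawn in red for an adjusted p under 0.05, and the dashed line is the median of all tested genes (-0.11).

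Levels of different genes were compared per kilobase of the longest protein-coding transcript. On the standard diet Agxt was highest at 383 ± 79.9 CPM per kilobase, and its lowest mouse (313) lay above the highest of the next gene, Gpt (197). Gpt (177 ± 17.3), Sds (153 ± 79.9), Prodh2 (126 ± 16.0) and Got1 (116 ± 31.2) followed, each overlapping its neighbour in the order. Prodh (64.5 ± 6.13), Agxt2 (60.5 ± 10.4), Gldc (43.0 ± 16.5) and Amt (22.3 ± 3.21) came next, again overlapping their neighbours, and all mice lay below Got1. Sdsl was lowest at 10.8 ± 4.401 CPM per kilobase, with its highest mouse (16.97) below the lowest of Amt (18.3). On the Longevity diet the same per-kilobase levels were 203 ± 78.0 for Agxt, 169 ± 61.5 for Gpt and 147 ± 30.0 for Prodh2, which overlapped. Got1 (54.6 ± 16.1) stood next to Prodh (52.7 ± 28.8) there.

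Related genes, among them cytosolic and mitochondrial partners, were set against each other within each mouse. Such a ratio does not change when a library is scaled by 1 factor. Got2, which encodes the mitochondrial aspartate aminotransferase, stood at 404.6 ± 41.2 and 482 ± 36.8 CPM (log2 difference 0.25, adjusted p = 0.383). The ratio of Got1 to Got2 was 0.942, 0.595, 0.549, 0.513 and 0.412 on the standard diet and 0.195, 0.189, 0.340, 0.250 and 0.191 on the Longevity diet, with no overlap. The log2 ratio differed by -1.35, or 2.55-fold lower (two-sided exact permutation p = 0.00794, adjusted p = 0.0397 over 5 ratios), and by -1.50 to -1.18 with each mouse left out in turn. These 5 ratios were chosen after values had been seen. Got1 alone already differed between the diets without overlap, so its ratio to Got2 is not separate evidence. The ratio of Prodh to Prodh2 differed by -0.66 on the log2 scale (exact permutation p = 0.0238, adjusted p = 0.0595), LD_405 lying among the standard diet mice. Gpt2, the mitochondrial alanine aminotransferase gene, stood at 163 ± 43.0 and 213 ± 50.3 CPM, and the log2 ratio of Gpt to Gpt2 differed by -0.54 (exact permutation p = 0.151, adjusted p = 0.188). The differences for Sds to Sdsl and Gldc to Amt were 0.06 (exact permutation p = 0.857, adjusted p = 0.857) and -0.42 (exact permutation p = 0.103, adjusted p = 0.172).

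**Figure D3:**
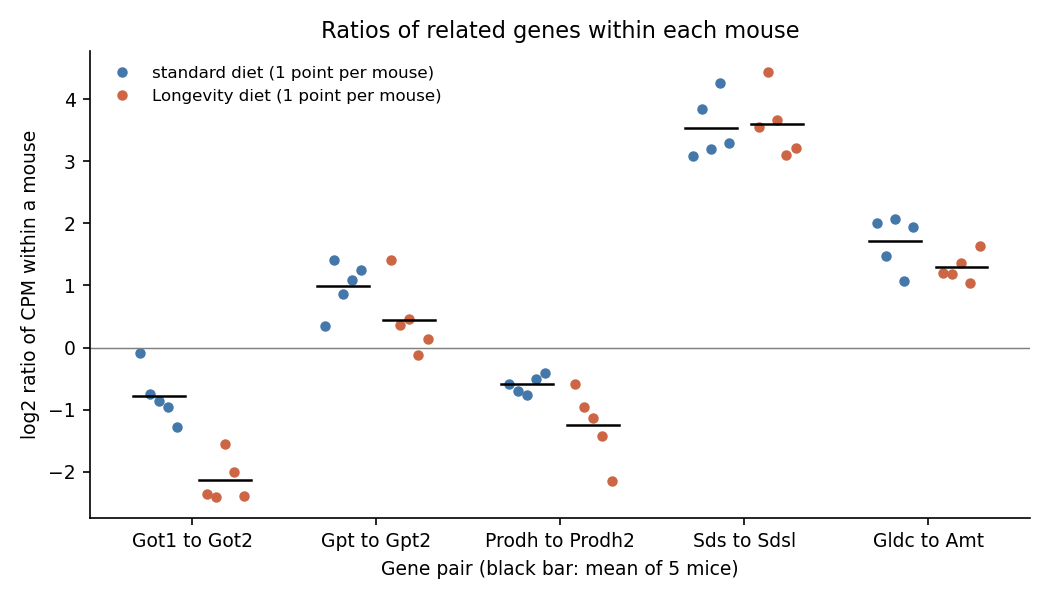
Log2 ratio of CPM of related genes within each mouse, 1 point per mouse and a black bar for the mean of 5 mice. The ratio of Got1 to Got2 runs from -1.28 to -0.087 on the standard diet and from -2.40 to -1.56 on the Longevity diet.

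Correlations between the genes within a diet were taken over 10 mice after subtracting each diet's mean log2 level, for all 45 pairs of members, with exact permutation of mice within diets. For Spearman's rho the mice were ranked within each diet, not across all 10, and the ranks of both diets were pooled. Sdsl and Agxt varied together (Pearson r = 0.93, exact permutation p = 0.000486, adjusted p = 0.0219). Spearman's rho was 0.90 (exact permutation p = 0.00431, adjusted p = 0.0484), r was 0.86 without LD_405 and LD_515, and 0.94 after median-of-ratios scaling. This was the only pair of 45 to pass on Pearson's r, 13 pairs had an unadjusted p under 0.05, and 26 of the 45 were positive. No share over pairs of other genes was computed, so these counts are not shown to be particular to the members. On Spearman's rho 4 pairs passed, Sdsl and Agxt among them. Sds and Prodh had rho = 0.95 (exact permutation p = 0.00125, adjusted p = 0.0281) and r = 0.74 (exact permutation p = 0.0131, adjusted p = 0.0800), with r = 0.72 without LD_515 and SD_500. Gpt and Prodh2 had rho = 0.95 (exact permutation p = 0.00125, adjusted p = 0.0281) and r = 0.77 (exact permutation p = 0.0155, adjusted p = 0.0800), with r = 0.92 without LD_515 and LD_442. Sds and Gpt had rho = 0.90 (exact permutation p = 0.00431, adjusted p = 0.0484) and r = 0.78 (exact permutation p = 0.00431, adjusted p = 0.0646), with r = 0.65 without LD_515 and SD_500. Got1, the gene that fell, had an unadjusted p under 0.05 with 0 of the other members. The pairs that share a locus or a complex passed on neither measure. Sds and Sdsl, the neighbouring genes, had r = 0.82 (exact permutation p = 0.0112, adjusted p = 0.0800), rho = 0.75 (exact permutation p = 0.0336, adjusted p = 0.168) and r = 0.73 without LD_515 and SD_500. Gldc and Amt, of 1 complex, had r = 0.85 (exact permutation p = 0.00389, adjusted p = 0.0646), rho = 0.65 (exact permutation p = 0.0761, adjusted p = 0.228) and r = 0.78 without SD_646 and LD_405. After median-of-ratios scaling r was 0.85 for Sds and Sdsl and 0.67 for Gldc and Amt.

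LD_405 stood at 1 end of the Longevity diet in 9 of the 10 genes. It was the highest of the 5 mice for Sds, Sdsl, Agxt, Gpt, Prodh and Prodh2 and the lowest for Gldc, Amt and Agxt2, while its Got1 was the median. The share of all genes with LD_405 at an end was not computed, so this is not shown to be particular to the members. Without LD_405 the median log2 change of all tested genes moved from -0.11 to -0.035.

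**Figure D4:**
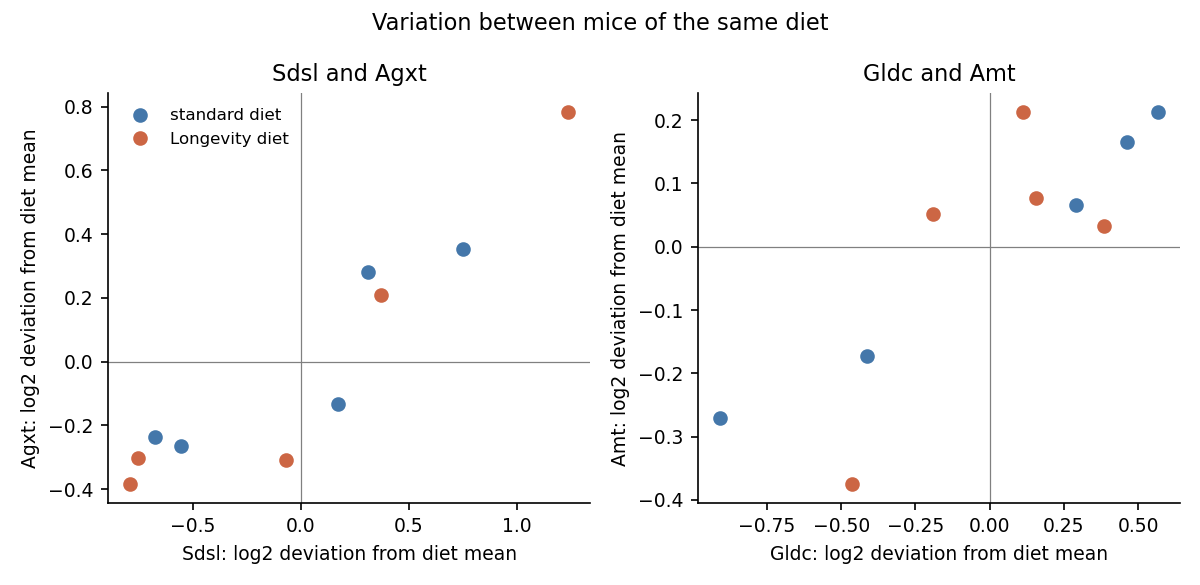
Deviation of each mouse from the mean log2 level of its diet, for Sdsl against Agxt (left) and Gldc against Amt (right), 10 mice in all. Mice above the diet mean for 1 gene of a pair mostly lie above it for the other, with r of 0.93 and 0.85.

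The other genes of these pathways were described from 6 lists of 69 symbols, of which 63 genes were tested. Of the 63, 0 passed by limma over all genes, 11 had an unadjusted p under 0.05, and 3 had values that did not overlap between the diets, where 1.89%, 17.5% and 5.50% of all genes did. The median log2 difference of the 63 was -0.06, with 31 above and 32 below 0. Other settings called up to 6 of them, among them Slc6a9, Mdh2, Oat and Slc38a4. Where a list gene is said below to pass without a named mouse, it did not pass with any other single mouse left out. Such passes do not replace the main test, in which these genes were not called.

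Among 12 tested genes of serine, glycine and threonine metabolism (0 rose, 0 fell, median -0.22), Alas1, the heme synthesis enzyme that consumes glycine, stood at 145 ± 88.0 and 414 ± 198 CPM (log2 difference 1.51, adjusted p = 0.105). With single mice left out, it passed only without SD_502 (1.81, adjusted p = 0.0477) and without LD_442 (1.88, adjusted p = 0.0255). Gatm, which uses glycine to make guanidinoacetate for creatine, stood at 17.2 ± 3.83 and 9.15 ± 4.91 CPM (-1.03, adjusted p = 0.121), and passed without LD_442 (-1.29, adjusted p = 0.0364). The serine hydroxymethyltransferases Shmt1, cytosolic, and Shmt2, mitochondrial, which interconvert serine and glycine, stood at 185 ± 40.0 and 164 ± 16.4 CPM (log2 difference -0.15, adjusted p = 0.700) and at 172 ± 43.8 and 194 ± 26.3 CPM (0.21, adjusted p = 0.636). Gnmt, which methylates glycine, stood at 1483 ± 425 and 896 ± 438 CPM with overlap between the diets (log2 difference -0.82, adjusted p = 0.174), and passed without LD_405 (-1.05, adjusted p = 0.0462).

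Among 7 tested genes of glyoxylate and hydroxyproline handling (0 rose, 0 fell, median 0.04), the smallest p belonged to Grhpr, glyoxylate reductase, at 203 ± 59.1 and 282 ± 85.3 CPM (adjusted p = 0.350). The peroxisomal catalase gene Cat and Hoga1, which yields glyoxylate from hydroxyproline, came next, Cat at -0.29 on the log2 scale (adjusted p = 0.507) and Hoga1 at 0.25 (adjusted p = 0.573).

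Among 6 tested genes of the proline and ornithine pathway (0 rose, 0 fell), Oat, ornithine aminotransferase and also a pericentral marker, stood at 195, 1431, 514, 540 and 483 CPM on the standard diet. On the Longevity diet it stood at 91.9, 205, 193, 181 and 200 CPM (log2 difference -1.63, SE 0.41, adjusted p = 0.0658). SD_403 was the standard diet mouse within the Longevity diet range, and without it Oat passed (-1.98, adjusted p = 0.0292). Aldh4a1, which completes proline oxidation to glutamate, had a log2 difference of -0.37 (adjusted p = 0.321).

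Of 13 tested genes of alanine and aspartate transamination and pyruvate entry (0 rose, 0 fell), 10 stood above 0 and the median log2 difference was 0.25. Mdh2, mitochondrial malate dehydrogenase, stood at 134 ± 6.91 and 224 ± 57.8 CPM without overlap (0.71, adjusted p = 0.0722) and passed without LD_442 (0.82, adjusted p = 0.0448). Ldha, lactate dehydrogenase A, had a log2 difference of 0.55 (adjusted p = 0.161), and Gpt2 of 0.40 (adjusted p = 0.369).

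Among 9 tested transporters (0 rose, 0 fell, median -0.30), the neutral amino acid carrier Slc38a4 stood at 834 ± 121 and 526 ± 75.0 CPM without overlap (log2 difference -0.66, adjusted p = 0.0584). The glycine transporter Slc6a9 stood at 8.00 to 24.9 CPM on the standard diet and at 23.4 to 61.2 CPM on the Longevity diet (log2 difference 1.43, adjusted p = 0.0630), only LD_405 lying below the highest standard diet mouse, SD_403. It passed without LD_405 (1.64, adjusted p = 0.0263). Slc3a1, the heavy chain of a dibasic amino acid and cystine carrier, had a log2 difference of -0.73 (adjusted p = 0.153).

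Among 16 regulators known for amino acid breakdown in liver (0 rose, 0 fell, median -0.02), the smallest p values belonged to the glucocorticoid receptor Nr3c1 (-0.62, adjusted p = 0.325), the transcription factor Cebpb (0.49, adjusted p = 0.329) and the CREB coactivator Crtc2 (-0.33, adjusted p = 0.355).

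**Figure D5:**
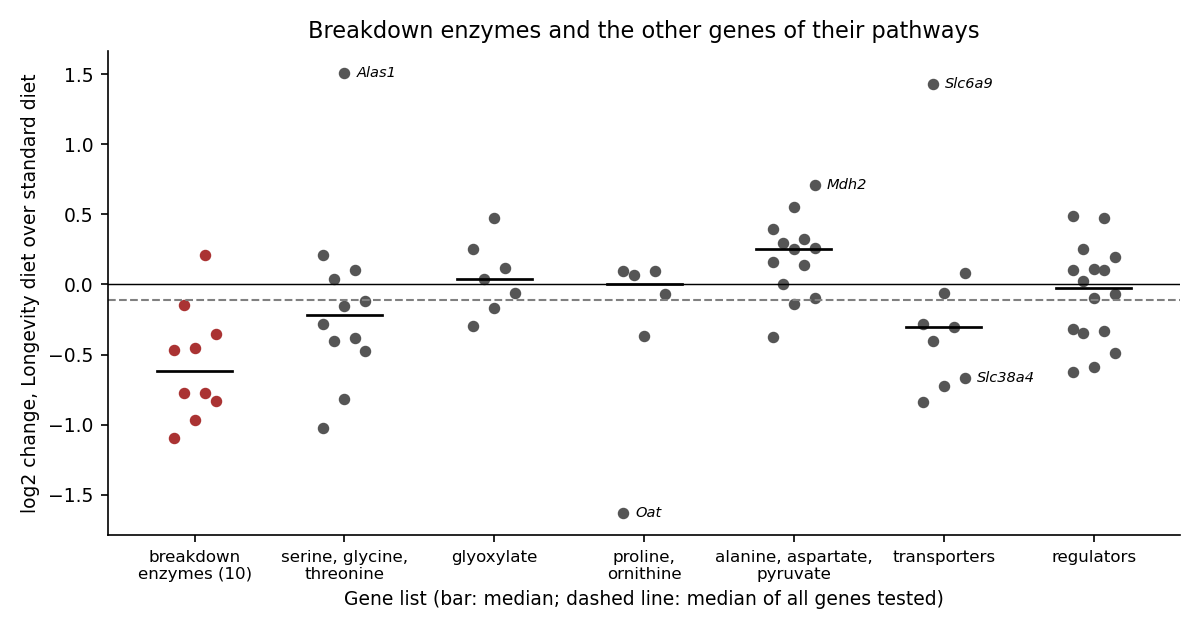
Log2 change (Longevity diet over standard diet) of the 10 breakdown enzymes in red and of the 63 tested genes of 6 pathway lists in grey, 1 point per gene with a bar for each median. The enzymes' median lies at -0.62 and that of the alanine, aspartate and pyruvate list at 0.25, and the dashed line is the median of all genes (-0.11).

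Because several of these enzymes differ between liver zones, zonation markers are given beside them. Periportal markers (12 of 12 measured) summed to 7110 to 9004 CPM on the standard diet and 5225 to 7351 CPM on the Longevity diet. Of these 12, 2 fell, Gls2 and Aldh1b1, where 1.23% of all tested genes fell. Cyp2f2, Hsd17b13 and Cdh1 stood higher without passing (log2 differences 0.26, 0.17 and 0.76), and the rest of the 12 stood below 0 without passing. Pericentral markers (12 of 12 measured, 0 fell) summed to 5083 to 11689 and 8480 to 10646 CPM, with SD_403 lowest. Their part in the differences of the 10 genes was not tested.

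The genes most like Got1 over the 10 mice, by the root-mean-square difference of mean-centred log2 levels, were Il33 (0.20), Zfp788 (0.21) and Psen2 (0.26). Those most like Agxt were Pla2g15 (0.18), Tcea3 (0.22) and Qdpr (0.22), and those most like Gldc were Tmem167b (0.20), Kdm5b (0.20) and Zfp142 (0.20). Of these 9 genes Psen2 (log2 change -1.11, adjusted p = 0.0408) and Qdpr (-0.86, adjusted p = 0.0357) fell, as did 1.23% of all tested genes. The distance includes the difference between the diets, so genes picked as like a lower gene tend to be lower too. Their falling is therefore no separate evidence.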

How the data were processed

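Poly-A selected liver RNA of 10 mice was sequenced, and the deposited table holds CPM per gene, which the authors made with STAR and Partek on mm39, per the submitters' processing notes. Versions, annotation and quantifier are not given in the sources used here. Every deposited CPM value included an added 0.0001, which was subtracted. Depth was estimated from the step between low values, where 84.5% to 88.0% of values below 100 reads were whole to within 0.1, too few to treat the values as counts. End coordinates are the printed stop minus 1, which matched all 15 mitochondrial genes of GENCODE M21.

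The 13157 genes averaging 1 CPM or more, all 10 members among them, were analysed as log2(CPM + 0.1) with limma 3.58.1 in R 4.3.3 (trend and robust, diet as the only term, unpaired, Benjamini-Hochberg at 0.05), tested on simulated data. Single values were compared by the exact permutation test over 252 assignments of mice. With no cage or litter named, p-values measure the spread between these mice. The members and lists were chosen with earlier results of these data known. Genes named are all members, their partners Gpt2, Got2, Gcsh, Dld, Shmt1, Shmt2 and Aldh4a1, up to 3 genes per list with the smallest p, and the 3 genes most like each of the 3 members with the smallest p; Gnmt was named after its values were seen, and 1 list gene that the rule names is not reported here. G6pc1 and Pycr3 were read under the table's symbols G6pc and Pycrl. Transcript lengths came from GENCODE M21 (GRCm38). Alternatives were other pseudocounts, filters, scalings, weights, thresholds and covariates, and leaving out mice.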

Additional observations from a re-analysis of the deposited data

How the results depend on the processing

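Got1 stayed negative in all 23 alternatives (log2 change -1.32 to -0.96) and kept its call in 16, with adjusted p of 0.0144 to 0.0962. The threshold of 0.1 is among the 16, and as a looser cutoff on the main fit it could not end the call. Agxt was called in 4 of 23 (adjusted p 0.00362 to 0.308), the threshold of 0.1 being among the 4, and the other 8 members in none. The number of members called was 1, and 2 with quantile normalization, array weights or a threshold of 0.1. It was 0 without the trend and robust options, and 0 to 2 with each mouse left out in turn. Pathway list genes called numbered 0, and 1 with median-of-ratios scaling, quantile normalization or scaling without the 10 most abundant genes, 2 with upper quartile scaling, 6 with array weights, 4 at a threshold of 0.1, and 0 to 3 with each mouse left out. Over all genes 249 were called, against 805 with array weights, 98 with the leading digit of the mouse number as a factor and 541 at a threshold of 0.1. Leaving out 1 mouse gave 97 (SD_403) to 378 (LD_405), with 147 without SD_501, 108 without SD_500, 98 without LD_406 and 112 without LD_515. Leaving out LD_406 and LD_515 together, the mice with the lowest endothelial marker sums, gave 17 genes and 0 members. This setting and the scaling without the 10 most abundant genes were chosen after seeing the data. The signs that turned were Gpt without LD_515 (0.014, and -0.29 without LD_405) and Dld without LD_406 and LD_515 (-0.015). The cause of these changes was not tested. No paired analysis was possible because no mouse number occurs on both diets. All members lay far above the floor of 3 reads (up to 0.121 CPM), and counting error covers reads, not molecules.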
